A study of Argiope bruennichi with 12 samples.

Results

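The genes described here were lowest in spiderlings of the European wasp spider *Argiope bruennichi* that had passed a cold winter. Normalized counts (CPM, the count of a gene per 1000000 counts of its sample) were computed for 37457 genes. A gene was taken when its mean CPM over all 12 samples was at least 2, when its highest CPM in the cold regime lay below its lowest CPM in the 8 warm and moderate samples, and when the mean of those 8 samples was at least 1.5 times the cold mean. Of 12442 genes with a mean CPM of at least 2, 32 met these conditions. The selection leaves out 3 genes by name, of which quinone oxidoreductases (LOC129981218) and diacylglycerol kinase 1 (LOC129984733) met the conditions with ratios of 1.72 and 1.85, so that 30 genes remained. The members were chosen by their CPM in the cold pools relative to the other 8, so every comparison of cold with the other regimes is a description, and calls from the fit to all genes are no test of it. The choice did not set warm against moderate, and that contrast was tested. It did use the joint mean of both regimes, so a high warm or moderate mean helped a gene to pass.

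Females were collected from a population in Pärnu, Estonia, and their egg sacs, each with spiderlings of the first instar, passed 3 months in climate cabinets. The cold regime had 5°C by day and -15°C at night, the warm regime 15°C by day and -5°C at night, and the moderate regime, the control, 5°C by day and -5°C at night. RNA was sequenced from 12 pools of 15 whole spiderlings, 4 pools per regime, after depletion of ribosomal RNA. The cold egg sacs were kept in a cabinet of another model than the warm and moderate ones, with 1 cabinet per regime, so that what regime and cabinet each did cannot be told apart. Which egg sacs or mothers each pool came from and the sex of the spiderlings are not given in the sources used here, and p-values therefore measure the spread between these pools. Whole spiderlings hold many tissues, and in such pools fewer cells of a type and less RNA per cell cannot be told apart.

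Spiderlings of this species hatch inside the silk egg sac in autumn, moult once and stay there without feeding until spring, so that they live through winter on their own reserves. Cold slows metabolism and development in arthropods, and many of them adjust the lipids of their membranes to it. Most spiders have several X chromosomes and no Y chromosome, so that a male carries one copy of each X chromosome and a female a pair. The genome assembly of this species (qqArgBrue1.1) names its sex chromosomes X1 and X2.

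Summed counts per pool were between 10800714 and 16081111. The 4 pools of a regime differed by more than counting noise in all 18 pairs. The chi-square reached 78.2 per degree of freedom. No pool was thus the same library sequenced again, but separate libraries from the same RNA or egg sac were not excluded. The members are named by gene identifier only, because the annotation used here gives position and gene type but no product names. All 30 members were found in it, 28 as protein-coding genes and 2 as long non-coding RNA genes.

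The 30 members were between 1.52 and 4.17 times as high in the 8 warm and moderate pools as in the cold pools, with a median of 1.76. Only 7 members reached a ratio of 2, and 23 lay below it. The median of the cold mean over the warm mean was 0.529, with a range of 0.187 to 0.717, and the median of the cold mean over the moderate mean was 0.611, with a range of 0.332 to 0.735. Mean CPM ran from 2.98 to 234 with a median of 10.6, and 11 members had a mean under 5. CPM is not divided by transcript length, so it compares pools within a gene and not one gene with another.

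The gap that separated cold from the rest was narrow for many members. The lowest of the 8 other pools was 1.01 to 1.38 times the highest cold pool, with a median of 1.12, and in 11 members it was under 1.1. The lowest of the 8 other pools was a moderate pool in 23 members (moderate replicate 3 in 13 and moderate replicate 1 in 7) and a warm pool in 7. In the whole table, 97 of 12442 genes (0.78%) had all cold pools below all others at any ratio, and 219 (1.76%) had all cold pools above all others. The mirrored choice, genes high only in cold, held 61 genes. The same rule applied to the other regimes gave 118 genes low only in warm and 38 low only in moderate, counted without a test.

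**Figure D1:**
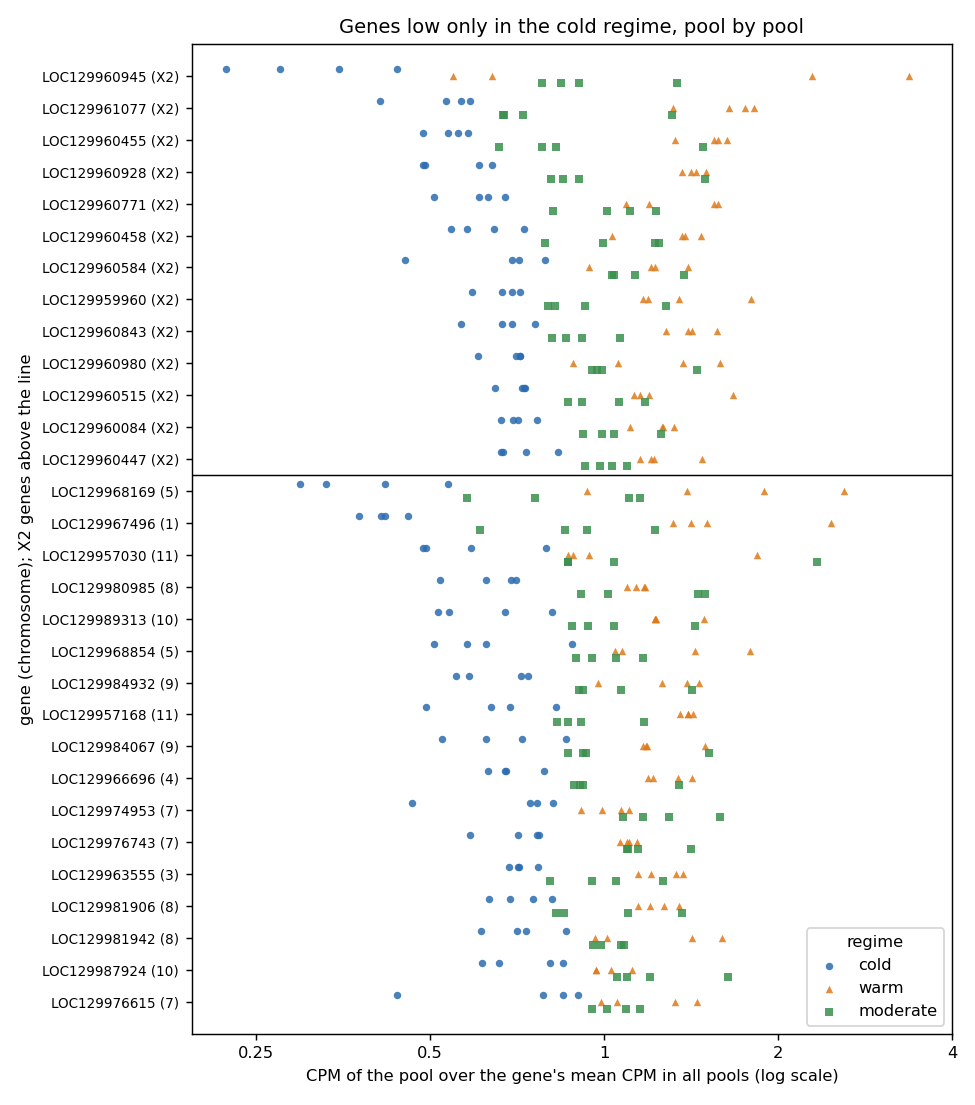
CPM of each member in each pool, divided by the mean CPM of that gene over the 12 pools, on a log2 axis; each row is a gene with its chromosome, each point a pool, and the 13 genes on X2 stand above the line. In all 30 rows the 4 cold pools lie left of the other 8, and the warm and moderate pools overlap in 25 rows.

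The largest ratio, 4.17, belonged to LOC129960945, a protein-coding gene on X2 at positions 31734787 to 31813733. Its CPM was 1.31, 1.04, 0.82 and 0.661 in the cold pools, 10.0, 6.83, 1.91 and 1.63 in the warm pools, and 2.69, 3.98, 2.33 and 2.51 in the moderate pools. The warm pools split widely, with warm replicates 1 and 2 far above warm replicates 3 and 4, which lay below all moderate pools. Its counts were low, down to 9 in a cold pool.

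LOC129968169 on chromosome 5 (127236897 to 127238085) had a ratio of 3.29. It measured 1.06, 1.34, 1.72 and 0.955 CPM in the cold pools, 8.31, 6.04, 4.45 and 2.99 CPM in the warm pools, and 3.69, 1.85, 3.53 and 2.43 CPM in the moderate pools. Its lowest moderate pool exceeded its highest cold pool by little. The gene lies inside the span of LOC129968168, which averaged 400 CPM in cold, 600 CPM in warm and 522 CPM in moderate, and reads from the overlap cannot be assigned with certainty.

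LOC129967496 on chromosome 1 (12786546 to 12794769), with a ratio of 3.10, was at 1.49, 1.63, 1.34 and 1.47 CPM in the cold pools, against 8.80, 5.05, 5.37 and 4.69 CPM in the warm pools and 3.33, 3.06, 2.18 and 4.37 CPM in the moderate pools. The 4 cold pools were close together, and here the 3 regimes did not overlap at all. Warm replicate 1 stood above the other warm pools.

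The long non-coding RNA gene LOC129961077 on X2 (17208419 to 17217528) was also fully separated between regimes. Its CPM was 1.24, 1.78, 1.72 and 1.62 in cold, 4.99, 3.98, 5.51 and 5.30 in warm, and 2.20, 2.04, 2.03 and 3.97 in moderate. Moderate replicate 4 reached almost the lowest warm pool, while the other 3 moderate pools lay just above the cold pools.

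Moderate replicate 4 was likewise the highest moderate pool in 2 more X2 genes, but in these the warm and moderate pools overlapped. LOC129960455 (14053525 to 14143185) was at 4.73, 5.64, 5.22 and 5.43 CPM in cold, 15.9, 15.3, 12.9 and 15.0 CPM in warm, and 8.01, 7.59, 6.39 and 14.4 CPM in moderate. LOC129960928 (71188707 to 71312656) was at 15.8, 15.6, 19.5 and 20.6 CPM in cold, 48.2, 46.4, 45.5 and 43.9 CPM in warm, and 27.4, 29.1, 26.0 and 48.0 CPM in moderate. In both genes moderate replicate 4 lay within the range of the warm pools, and the other 3 moderate pools lay between cold and warm.

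LOC129957030 on chromosome 11 (5011786 to 5018519) had another order. It was at 3.11, 1.93, 2.31 and 1.91 CPM in cold, 7.20, 3.70, 3.39 and 3.47 CPM in warm, and 3.40, 4.07, 9.17 and 3.40 CPM in moderate. Here 1 warm pool and 1 moderate pool were high, and the remaining 6 lay close above the highest cold pool. It followed the mean profile of the other members least closely (Pearson's r = 0.55 across the 12 pools, of log2 CPM, a description that the shared cold values enter).

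**Figure D2:**
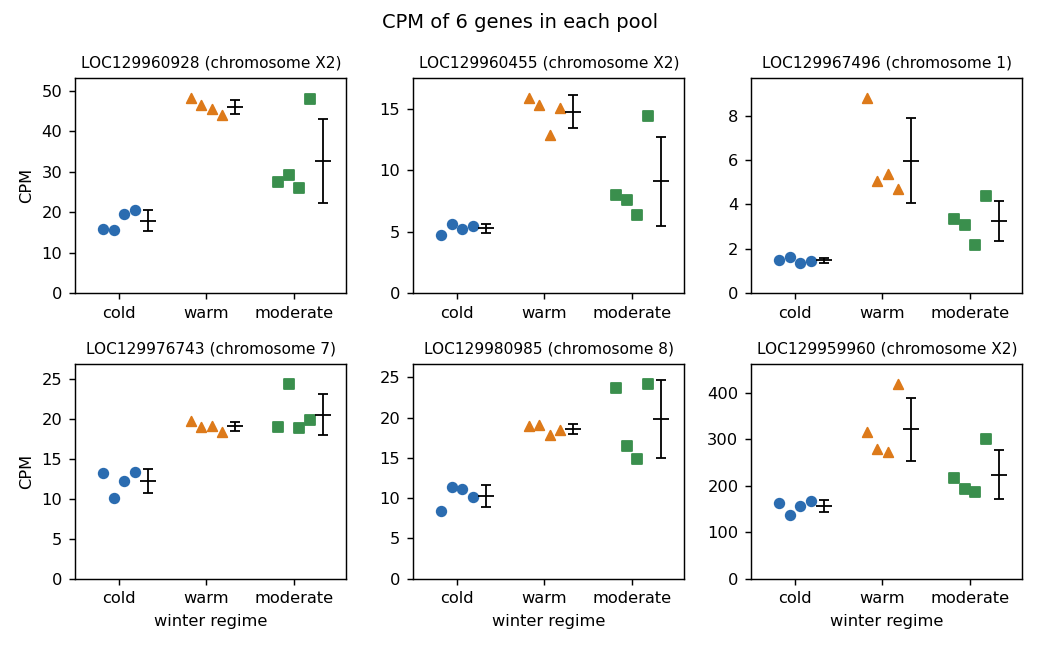
CPM of 6 members in each pool (points, replicates 1 to 4 from left to right within a regime), with the mean and SD of the 4 pools beside them as a bar; each panel starts at 0 and has its own scale. In LOC129960928 and LOC129960455 moderate replicate 4 lies with the warm pools, while in LOC129976743 and LOC129980985 warm and moderate are level.

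Ratios of 1.81 to 1.98 followed for the next 5 genes. LOC129960771 on X2 (124102111 to 124404769) averaged 2.47 ± 0.288 CPM in cold, 5.53 ± 1.01 CPM in warm and 4.26 ± 0.715 CPM in moderate (SD, n = 4 each). LOC129960458, also on X2 (109819758 to 109822334), averaged 8.77 ± 1.15 CPM in cold, 18.4 ± 2.7 CPM in warm and 15.0 ± 3.01 CPM in moderate (SD, n = 4 each). In both genes the warm and the moderate pools overlapped.

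On the autosomes, LOC129980985 of chromosome 8 (120492025 to 120633980) was at 8.46, 11.4, 11.2 and 10.1 CPM in cold, 19.0, 19.1, 17.8 and 18.4 CPM in warm, and 23.6, 16.5, 14.8 and 24.2 CPM in moderate. The warm pools lay within the range of the moderate pools. LOC129989313 of chromosome 10 (114681668 to 114697864) averaged 15.3 ± 3.29 CPM in cold, 31.1 ± 3.14 CPM in warm and 25.8 ± 6.04 CPM in moderate (SD, n = 4 each). LOC129968854 of chromosome 5 (75917636 to 75936576) averaged 2.36 ± 0.589 CPM in cold, 4.87 ± 1.28 CPM in warm and 3.71 ± 0.436 CPM in moderate (SD, n = 4 each). Its separation was slight, with 3.21 CPM in cold replicate 3 and 3.26 CPM in moderate replicate 1.

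The member with the most counts was LOC129959960 on X2 (76289244 to 76306523). It was at 163, 138, 156 and 167 CPM in cold, 316, 279, 273 and 420 CPM in warm, and 217, 192, 188 and 300 CPM in moderate. Warm replicate 4 and moderate replicate 4 were the highest of their regimes, and moderate replicate 4 lay among the warm pools.

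LOC129981906 on chromosome 8 (109238439 to 109416521) averaged 103 ± 11.2 CPM in cold, 177 ± 12.5 CPM in warm and 148 ± 35.6 CPM in moderate (SD, n = 4 each). LOC129960084 on X2 (12547874 to 12658615) averaged 96.7 ± 5.89 CPM in cold, 169 ± 12.5 CPM in warm and 143 ± 19.6 CPM in moderate (SD, n = 4 each). The order cold, moderate, warm of the means held in both, and moderate replicate 4 was again the highest moderate pool.

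LOC129960447 on X2 (70337606 to 70442295) was at 57.2, 65.1, 51.8 and 52.4 CPM in cold, 94.4, 116, 90.3 and 95.5 CPM in warm, and 80.7, 76.9, 72.6 and 85.8 CPM in moderate. No pool of one regime fell into the range of another. LOC129966696 on chromosome 4 (9770768 to 9809281) averaged 47.7 ± 4.65 CPM in cold, 89.0 ± 7.43 CPM in warm and 70.0 ± 15.3 CPM in moderate, and LOC129984932 on chromosome 9 (40585527 to 40652339) averaged 27.4 ± 3.91 CPM in cold, 53.7 ± 9.01 CPM in warm and 45.5 ± 10.1 CPM in moderate (SD, n = 4 each). Both had warm and moderate pools that overlapped.

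The second long non-coding RNA gene, LOC129976743 on chromosome 7 (74160686 to 74205705), had the widest gap between the highest cold pool and the lowest other pool, 1.38-fold. It was at 13.2, 10.2, 12.3 and 13.4 CPM in cold, 19.7, 19.0, 19.1 and 18.4 CPM in warm, and 19.1, 24.4, 18.9 and 19.8 CPM in moderate. Apart from moderate replicate 2, the warm and moderate pools were nearly level. It lies within the protein-coding gene LOC129976742, which averaged 119 CPM in cold, 121 CPM in warm and 143 CPM in moderate.

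Just inside the limit of 1.5 were LOC129987924 on chromosome 10 (46237852 to 46370407) with a ratio of 1.55 and LOC129976615 on chromosome 7 (86117874 to 86367339) with 1.52. Just outside were LOC129958090 on chromosome 2 with 1.498 and LOC129960427 on X2 with 1.49, which met the other conditions. LOC129976615 was at 4.66, 5.04, 2.61 and 5.36 CPM in cold, 7.90, 8.60, 5.86 and 6.26 CPM in warm, and 5.67, 6.85, 6.01 and 6.48 CPM in moderate. LOC129960427 was at 39.2, 50.1, 40.3 and 43.1 CPM in cold, 79.4, 72.5, 68.3 and 65.8 CPM in warm, and 60.4, 62.2, 52.0 and 53.8 CPM in moderate. The limit thus cut through a run of similar genes.

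The smallest gaps were those of LOC129957168 on chromosome 11 (67564749 to 68231694) and LOC129984067 on chromosome 9 (123797834 to 123805518), each 1.01-fold. LOC129957168 had 5.64 CPM in cold replicate 2 and 5.67 CPM in moderate replicate 1. LOC129984067 had 8.35 CPM in cold replicate 3 and 8.43 CPM in moderate replicate 2. It lies inside LOC129984069, which averaged 227 CPM in cold, 197 CPM in warm and 222 CPM in moderate. A difference this small is well within the spread between pools of one regime.

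Members overlapped another annotated gene in 6 cases (20%), against 10.4% of the genes with a mean CPM of at least 2. Besides the 3 already described these were LOC129963555, LOC129960447 and LOC129960771. Members were long, with a median gene span of 69053 bp against 23625 bp over all genes of that level. On X2, where genes were longer, the median span was 83001 bp for the members and 37380 bp for all. No members lay within 100 kb of each other, and the nearest pair was 746412 bp apart.

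The chromosomes of the members, which the choice did not use, were uneven. On X2 there were 13 of the 30 (43.3%), against 827 of 12442 genes (6.65%), and X1 held none of the 30, against 865 genes (6.95%). The remaining 17 were on autosomes, with 3 each on chromosomes 7 and 8, 2 each on chromosomes 5, 9, 10 and 11, 1 each on chromosomes 1, 3 and 4, and 0 on chromosomes 2 and 6. The X2 members were spread between positions 12547874 and 124404769. Of the 61 genes high only in cold, 4 were on X2 and 1 on X1. These are counts of chosen genes and carry no test. With each pool left out in turn, the share of chosen genes on X2 was 23.4% to 43.3%.

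**Figure D3:**
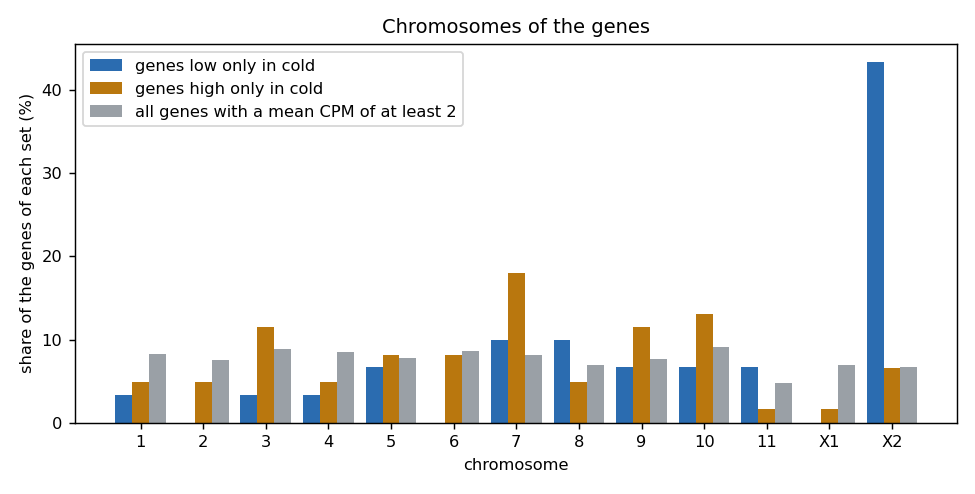
Share (%) of each set of genes on each chromosome, for the 30 genes low only in cold, the 61 genes high only in cold and all 12442 genes with a mean CPM of at least 2. The bar of the genes low only in cold is at 43.3% on X2 and at 0 on X1, where all genes are at 6.65% and 6.95%.

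Both X chromosomes as a whole were lower in cold than in the mean of the other 8 pools. The median log2 ratio of the cold mean to the mean of the other 8 pools was -0.12 for X2 genes, -0.12 for X1 genes and 0.037 for autosomal genes. The cold mean was the lower one in 69.5% of X2 genes, 70.2% of X1 genes and 43.3% of autosomal genes. At any ratio, 29 X2 genes, 19 X1 genes and 49 autosomal genes had all cold pools below all others. Those of X1 had ratios of 1.11 to 1.46 with a median of 1.30, and so stayed under the limit of 1.5, whereas 13 of the 29 on X2 passed it.

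The level of X2, taken in each pool as the median over X2 genes of the centred log2 CPM minus that over autosomal genes, was -0.13, -0.057, -0.088 and -0.16 in the cold pools, 0.12, 0.11, 0.049 and 0.12 in the warm pools, and -0.046, 0.062, -0.11 and 0.044 in the moderate pools. The means were 0.099 in warm, -0.012 in moderate and -0.11 in cold, so that moderate lay between the others. All warm pools were above all cold pools. The cold and the moderate pools overlapped, since moderate replicate 3 was as low as the cold pools and moderate replicate 1 was above them all by little. Warm minus moderate was 0.11 on the log2 scale for X2 (exact permutation test, two-sided, n = 4 each, p = 0.0571) and 0.085 for X1 (exact permutation test, two-sided, n = 4 each, p = 0.0857). The adjusted p was 0.0857 for both. These 2 comparisons were chosen after the values were seen and did not pass 0.05. The level of X1, taken in the same way, was -0.14, -0.042, -0.093 and -0.15 in the cold pools. It was 0.10, 0.088, 0.049 and 0.099 in the warm pools and -0.033, 0.060, -0.10 and 0.071 in the moderate pools. The sex of the spiderlings in each pool is not given, so the part of sex in the levels of X1 and X2 was not tested.

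Because the X2 level of all cold pools lay below that of all warm pools, the rule was also applied to CPM scaled within autosomes, X1 and X2 separately, a setting chosen after the data were seen. Of the 30 members 25 still met it, and of the 13 on X2 10 did. In all, 34 genes met it, of which 10 were on X2 (29.4%, against 43.3% before). The same pools chose the members, so that most stayed is no test. The 5 that no longer met it were LOC129960084, LOC129960447 and LOC129960515 of X2, LOC129963555 and LOC129968854. With this scaling the median ratio of the X2 members was 1.64, against 1.76 before, and that of the autosomal members was 1.75, against 1.70 before. In moderate replicate 3, where the other X2 genes were as low as in cold, the X2 members were all above their cold values, as the rule demands.

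**Figure D4:**
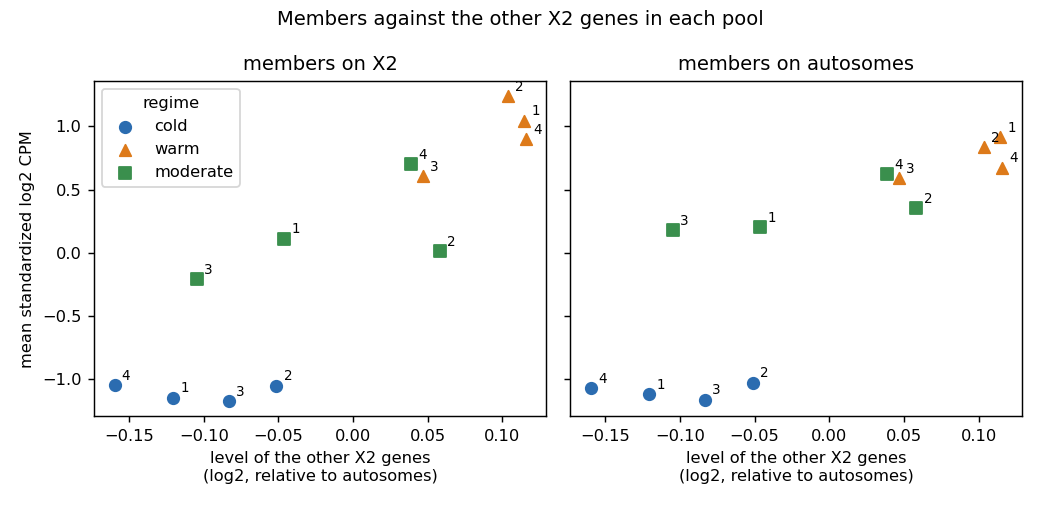
Mean standardized log2 CPM of the X2 members (left) and of the autosomal members (right) in each pool, against the level of the X2 genes that are not members (log2, relative to autosomes); numbers are replicates. The cold pools are low in both panels because the genes were chosen so. Moderate replicate 3 has an X2 level within the cold range and member values above those of the cold pools, as the rule demands.

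Warm and moderate could be compared by a test, fitted to all 14057 genes that passed the count filter, among them all 30 members. By the quasi-likelihood test of edgeR, adjusted after Benjamini and Hochberg, 1 member was higher in warm, which is 1 of 30 against 1.37% of all genes, and 0 were lower, against 2.71%. At an unadjusted p under 0.05 there were 10 higher (12.9% of all genes) and 0 lower (16.7%). DESeq2's Wald test called 5 members higher (6.44%) and 0 lower (9.61%), while limma with voom and weighted samples called 15 higher (17.7%) and 1, LOC129974953, lower (18.5%).

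The called gene was LOC129960843 on X2 (32935668 to 33018668). It was at 12.5, 16.8, 14.7 and 15.3 CPM in cold, 30.8, 34.6, 28.2 and 31.3 CPM in warm, and 17.9, 19.0, 20.2 and 23.5 CPM in moderate. All 4 warm pools were above all moderate pools. Its warm-to-moderate log2 fold-change was 0.60 with a standard error of 0.13, and its adjusted p by edgeR's quasi-likelihood test was 0.0457. The call held in 6 of 20 alternative fits, over which the adjusted p ranged from 0.000457 to 0.130, and it was lost when any single pool other than moderate replicate 4 was left out, in fits that called only 0 to 5 of all genes higher.

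The warm-to-moderate log2 fold-change was positive in 25 of 30 members and in 49.6% of all genes tested. The mean CPM was higher in warm in 25 members, against 52.4% of genes with a mean CPM of at least 2. The median was 0.27 over the members and -0.0035 over all genes tested. It was 0.34 over the X2 members and 0.11 over all 949 X2 genes tested, and 0.22 over the members elsewhere. All 13 X2 members and 12 of the 17 others had positive values. In 5 members warm and moderate CPM did not overlap, with warm higher (6.20% of all genes), and in 0 members with warm lower (4.79%). These 5 were LOC129967496, LOC129961077, LOC129957168, LOC129960843 and LOC129960447. How much of this lean towards warm the choice itself brought was not tested.

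The 5 members whose mean was lower in warm than in moderate were LOC129957030, LOC129980985, LOC129974953, LOC129976743 and LOC129987924, all on autosomes. Of these, LOC129974953 on chromosome 7 was singled out after its values were seen. It was at 3.54, 3.78, 2.16 and 3.45 CPM in cold, 4.23, 5.12, 4.59 and 4.96 CPM in warm, and 7.37, 5.00, 6.01 and 5.42 CPM in moderate. Its warm and moderate pools overlapped slightly, and its log2 fold-change of -0.36 had a standard error of 0.20 and an adjusted p of 0.248 in edgeR's quasi-likelihood test. LOC129987924 had 7.59, 9.27, 7.09 and 9.77 CPM in cold, 11.8, 12.9, 11.2 and 11.2 CPM in warm, and 12.6, 18.9, 13.8 and 12.1 CPM in moderate. In the edgeR test its adjusted p was 0.244, for a log2 fold-change of -0.33 and a standard error of 0.19. None of the 5 passed the threshold in the edgeR fit.

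**Figure D5:**
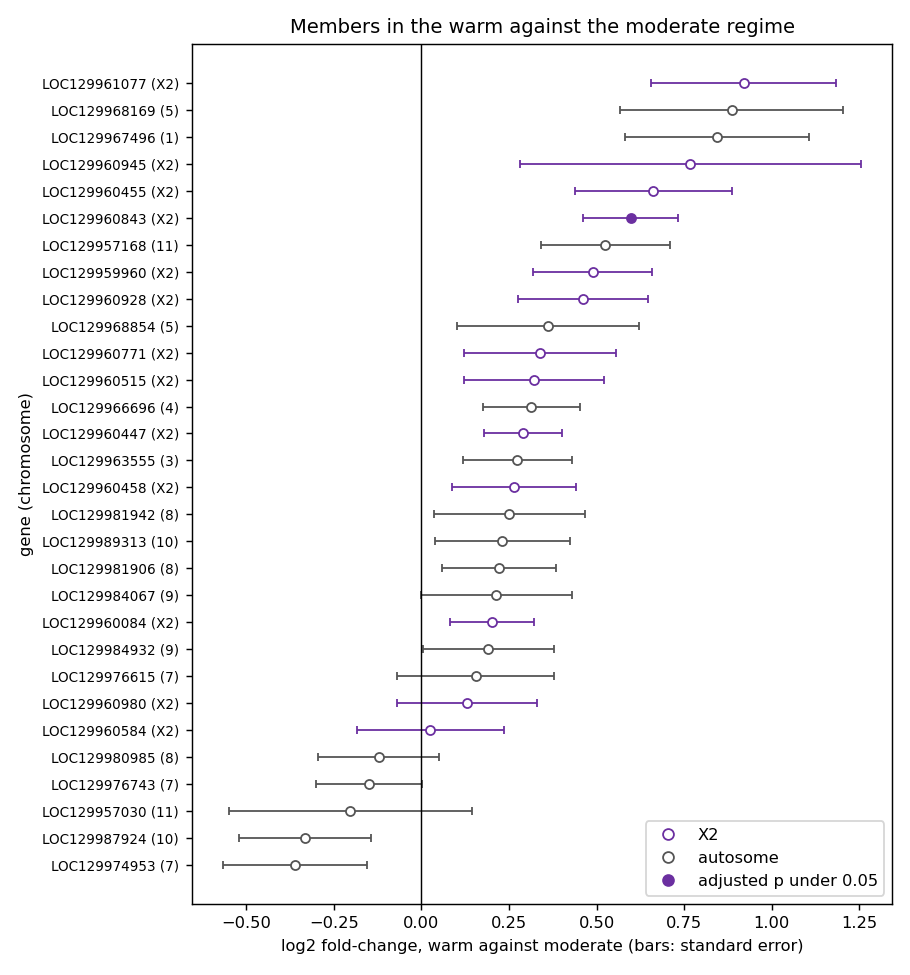
Log2 fold-change of warm against moderate for the 30 members, with the standard error as a bar, from edgeR's fit to all genes; colour separates X2 from autosomes and a filled point marks an adjusted p under 0.05. All 13 X2 genes lie right of 0, 5 autosomal genes lie left of it, and 1 point, LOC129960843, is filled.

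Moderate replicate 4 was the highest moderate pool in 18 of the 30 members, 10 of them among the 13 on X2, against 32.8% of all genes with a mean CPM of at least 2. Over X2 genes alone this share was not counted. The level of X2 was 0.044 in this pool and -0.046, 0.062 and -0.11 in moderate replicates 1, 2 and 3. Without moderate replicate 4, the edgeR test called 9 members higher in warm than in moderate, against 14.5% of all genes called in that direction, and 0 lower, against 16.7%. The part of this pool in the other results was not tested beyond leaving it out.

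The fit to all genes also gave calls for cold against the other regimes. The choice of the members fixed their direction and separation there, so these counts describe how the genes were chosen, are no test of a cold effect, and cannot be read against the shares of all genes printed beside them. In cold against warm, 25 of 30 members were called lower by edgeR (2.7% of all genes). In cold against moderate edgeR called 0 lower (0.00711%), and 30 were lower at an unadjusted p under 0.05 (6.69%). DESeq2's Wald test called 15 of them lower in cold than in moderate (0.697%), limma with voom and weighted samples called 13 (3.07%), and edgeR without moderate replicate 4 called 11 (3.04%).

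The members followed one profile to different degrees. Across the 12 pools, log2 CPM correlated with the mean profile of the other members most closely in LOC129960084 (Pearson's r = 0.96) and next in LOC129960447 and LOC129960928 (both 0.95), all 3 on X2. These correlations share the cold values that chose the genes and the depth of each pool, and are given without a test.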

How the data were processed

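Directional, ribosome-depleted RNA-Seq reads were mapped by the authors to the species' genome (STAR 2.7.11a, 2-pass mode) and counted with featureCounts (Subread 2.0.6). The deposited table holds raw counts, not normalized. Options for strand and multi-mapping reads are not given in the sources used here. Of 37459 genes, 2 had no values and were left out; all 12 sample columns were used. Regimes and replicate numbers were taken from the labels. CPM used the column sums. Differences were tested with edgeR 4.0.16 (quasi-likelihood, TMM, filterByExpr with a minimum count of 10, all 12 samples in 1 model, Benjamini-Hochberg over all genes tested, threshold 0.05) in R 4.3.3. Alternatives were DESeq2 1.42.0, limma 3.58.1 (voom with sample weights), other scalings and filters, a replicate block, and each pool left out. X levels used log2(CPM + 0.5). Scripts were tested on simulated data. Positions come from RefSeq's qqArgBrue1.1 annotation. The text names the 12 largest ratios, the 6 highest means, called genes, genes at the limit of 1.5 or with the smallest gaps, non-coding genes and the 3 closest to the mean profile. Members and lists were chosen with earlier results of these data known. Product names and sequences were not used here, so lists by product name and promoter motifs could not be applied.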

Additional observations from a re-analysis of the deposited data

Results flagged for a closer look

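In each member and regime the highest and the lowest of the 4 pools were compared with the other 3, and a pool stood apart where its gap to the nearest pool as a share of the range exceeded Dixon's 95% critical value. The same was done for the levels of X1 and X2 in each regime. This held in 14 of 90 groups of member values and in 1 of 6 groups of X levels. Chance marks about 1 in 20 groups if they are independent and normally distributed. The members were chosen by a rule and vary together across pools, so their count cannot be read against that rate. Moderate replicate 4 was far above the other moderate pools in LOC129960928 (48.0 CPM, others 26.0 to 29.1), LOC129961077 (3.97 CPM, others 2.03 to 2.20), LOC129984067 (14.8 CPM, others 8.43 to 9.07), LOC129960980 (22.0 CPM, others 14.5 to 15.1) and LOC129966696 (92.9 CPM, others 61.1 to 63.4). Moderate replicate 3 was high in LOC129957030 (9.17 CPM, others 3.40 to 4.07), and moderate replicate 2 was high in LOC129976743 (24.4 CPM, others 18.9 to 19.8).

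Warm replicate 1 was high in LOC129967496 (8.80 CPM, others 4.69 to 5.37), in LOC129957030 (7.20 CPM, others 3.39 to 3.70) and in LOC129984067 (14.5 CPM, others 11.4 to 11.6). Warm replicate 4 was high in LOC129989313 (35.8 CPM, others 29.4 to 29.6), and warm replicate 2 in LOC129960515 (7.25 CPM, others 4.90 to 5.20). Cold replicate 2 was low in LOC129960980 (9.20 CPM, others 10.7 to 10.9) and in LOC129960515 (2.82 CPM, others 3.13 to 3.17). The level of X2 relative to autosomes was low in warm replicate 3 (0.049 on the log2 scale, others 0.11 to 0.12).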

How the results depend on the processing

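The number of genes meeting the rule was 40 (17 on X2) with TMM or DESeq2 scaling, 43 (19) with upper-quartile scaling and 31 (13) at a mean CPM of at least 1, of which 27 to 30 were among the 30 members. It was 19 (8 on X2) at a mean CPM of at least 5, 74 (24) with a lower minimum of the ratio than 1.5 and 7 (4) at a ratio of at least 2. Leaving out each pool in turn gave 30 to 75 genes (13 to 21 on X2), with 59 without cold replicate 1, 60 without cold replicate 2, 64 without cold replicate 3, 52 without moderate replicate 3 and 75 without moderate replicate 2. The share on X2 ran from 23.4% without cold replicate 3 to 43.3% without warm replicate 2, and was 43.3% with all pools. At least 27 members and all 13 on X2 were kept, which was largely fixed in advance, since a pool left out only loosens the separation. Of genes chosen without cold replicate 3, that pool lay below all warm and moderate pools in 27 of 64 (8.22% of all genes). Moderate replicate 2 lay above all cold pools in 29 of 75 chosen without it (25.5%), and warm replicate 2 in 29 of 30 (28.9%). The remaining pools chose these genes for a gap between cold and the rest. The shares of all genes are therefore no fair background, and these counts are no test. Without both moderate replicates 2 and 4 there were 86 (24), and with scaling within chromosome classes 34 (10); these settings, and the counts on X2 under every setting, were chosen after the data were seen. Members higher in warm than in moderate numbered 1 by edgeR, 5 by DESeq2, 15 by voom (and 1 lower), 0 with upper-quartile scaling (46 of all 14057 genes), 2 with at least 10 counts in every sample (223 of 12524), 0 on only the 2 regimes compared (0 of 13802), and 0 to 9 with each pool left out, 9 without moderate replicate 4 (2052 of 14181) and 0 when any other pool was left out (0 to 5 of all genes). The calls of cold against the other regimes rest on the contrast that chose the members. Members lower in cold than in moderate numbered 0 by edgeR, 15 by DESeq2, 13 by voom and 0 to 11 with each pool left out (11 without moderate replicate 4, with 431 of all genes, and 1 without moderate replicate 3, with 2). Members lower in cold than in warm numbered 25 (380 of all genes), and 12 to 28 with each pool left out, while 59 to 1117 of all genes were called lower in the same fits (12 members without cold replicate 4, 13 without warm replicate 1, 14 without cold replicate 1, 15 without warm replicate 2). With a replicate block, 0 members were called higher in warm than in moderate (9 of 14057 genes). In that fit 20 were lower in cold than in warm (249 genes). Same-numbered pools deviated together only weakly, with correlations of -0.10 to 0.12, over 0.1 in 2 of 12. Replicate 1 was the best match of replicate 1 in each pair of regimes, so whether the replicate numbers pair the samples cannot be told. Of 599 alternative log2 fold-changes of warm against moderate, 551 kept direction and call and 6 changed sign: LOC129957030 was -0.50 to 0.22 with each pool left out, LOC129960980 -0.028 to 0.29, and LOC129960584 -0.055 to 0.11 (-0.019 without moderate replicate 4, -0.0040 without moderate replicate 3) and -0.076 by voom. The cause of these changes was not tested. Members of low counts limit the precision, since 11 had a mean CPM under 5.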
